A study of Mus musculus with 12 samples.

Results

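The 10 genes described here encode enzymes and helpers that modify, fold, cut and crosslink collagen in the liver of mice with chemically induced fibrosis. They were chosen by name, as Lox, Loxl1, Loxl2, Plod1, Plod2, P4ha1, P4ha2, Serpinh1, Pcolce and Bmp1, by a rule that uses no measured value, though earlier results of these data were known when it was set. All 26 protein-coding transcripts of these 10 genes that were listed were used, out of 29883 transcripts of 14188 genes. Not every annotated coding form was listed. The list held 3 of 8 for P4ha2, 3 of 6 for Pcolce and 1 of 2 for Loxl2, and all for the other members. Annotated forms of the members that are not coding were not among them. Bmp1, for example, has 7 forms in all and 1 coding form. RNA of whole liver was sequenced from 12 male mice. By the methods of the study they were of the strain C57BL/6J and 6 weeks old at the start of the experiment. The sample labels give the strain as C57BL/8. All 12 mice were given CCl4, a solvent that injures hepatocytes and causes fibrosis, by repeated injection into the peritoneum, and were killed in the eighth week of the experiment. The 6 mice of the PZH group also received Pien Tze Huang (PZH), a traditional Chinese medicine, into the stomach every day, and the 6 mice of the control group received double distilled water the same way. No liver without CCl4 was analysed here, so the values compare treated with untreated fibrotic liver and do not show a healthy level.

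Collagen chains are made in the endoplasmic reticulum, mainly by hepatic stellate cells and the myofibroblasts they become in an injured liver. Prolyl 4-hydroxylases modify prolines so that the triple helix is stable at body temperature, lysyl hydroxylases modify lysines that later carry sugars and crosslinks, and the chaperone HSP47 binds the folded helix. After secretion the propeptides are cut off, and lysyl oxidases then turn lysines and hydroxylysines of the fibril into reactive aldehydes that join neighbouring molecules. Crosslinked collagen resists degradation, which is why these enzymes are studied in fibrosis.

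Of the 10 genes 5 fell with PZH and none rose. The genes that fell were both prolyl 4-hydroxylase subunits, P4ha1 and P4ha2, the lysyl hydroxylase Plod2, and the lysyl oxidases Lox and Loxl2. Their level was given as the gene sum, which is the FPKM (sequenced fragments, scaled to transcript length and library size) summed over the listed transcripts of a gene. The gene sums were compared with limma on log2(FPKM + 1), and a gene was called at an adjusted p (Benjamini-Hochberg over all genes) below 0.05. By this rule 32.1% of all genes were lower, 12.7% were higher and 44.8% were called in either direction, and whether 5 lower genes of 10 exceed this background was not tested. The median difference of the 10 gene sums was -0.26 on the log2 scale, against -0.11 over all genes, and 7 of the 10 were below 0, against 65.2% of all genes. None of the 10 gene sums reached the rule of the study, a 2-fold change with an unadjusted p (here of limma) below 0.05, which called 4.02% of all genes. The values of the 2 groups did not overlap for 2 members, P4ha1 and Plod2, both lower, and for 24.3% of all genes (17.9% lower). The groups overlapped for every one of the 26 single transcripts, while 8.58% of all transcripts were lower and 3.41% higher without overlap. Single values were also compared by exact permutation tests over the labels of the mice, always two-sided with 6 mice per group, which cannot give a p below 0.00216.

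Since most genes were slightly lower with PZH on the deposited scale, the differences were also taken after each mouse was divided by its median-ratio scale factor, which moved the median of all genes from -0.11 to 0.00. On this scale 19.7% of all genes were lower and 19.3% higher. The 5 members that fell were all still called and lower, with differences between -0.72 and -0.30 on the log2 scale (limma, adjusted p 0.0389 or less). In the bulk RNA used here, fewer cells of a type and less RNA per cell cannot be told apart.

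**Figure D1:**
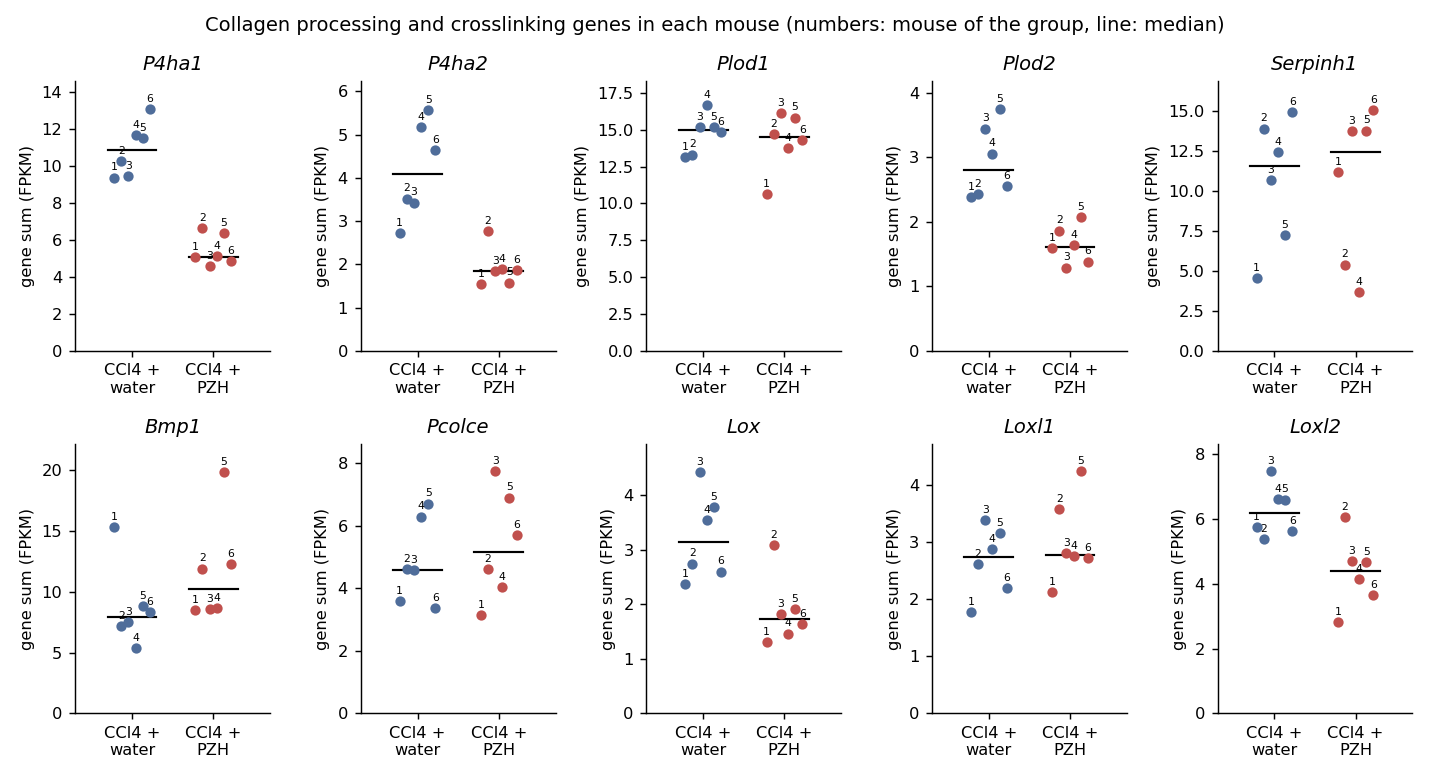
Gene sum in FPKM (vertical axes from 0) of the 10 members in each mouse, for the 6 control and 6 PZH mice, with the mouse number above each point and a line at the median. For P4ha1 and Plod2 every PZH mouse lies below every control mouse, and for Lox, Loxl2 and P4ha2 the overlap comes from PZH 2.

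P4ha1 encodes the main catalytic alpha subunit of prolyl 4-hydroxylase, and it showed the clearest difference of the members. Its gene (chr10:59323296-59373304 on the plus strand, GRCm38) stood at 4.60 to 6.66 FPKM in the PZH mice (median 5.09) and at 9.37 to 13.1 FPKM in the control mice (median 10.9). The highest PZH mouse was thus well below the lowest control mouse. The mean of the PZH group, 5.44 ± 0.850 FPKM (SD, n = 6), was 0.499 times that of the control group, 10.9 ± 1.46 FPKM (SD, n = 6). On the log2(FPKM + 1) scale the gene fell by 0.89 (SE 0.10, limma, adjusted p = 3.97e-05), and by 0.84 to 0.94 when any 1 mouse was left out.

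Behind this even gene sum, the values listed for the transcripts of P4ha1 swung between mice. Forms of a gene share exons, so the values and shares of forms depend on how the quantification divided shared fragments. Gene sums depend on this division through the lengths of the forms. A fragment moved between listed forms stays in the sum but is scaled to another length. P4ha1-201 has 4043 bases and P4ha1-203 has 2918 bases. A fragment given to a form that is not listed leaves the sum. How far this moved the gene sums was not tested. Whether the swings of P4ha1 or of other members reflect the use of forms or this division was not tested. Its 2 long forms, P4ha1-201 and P4ha1-203, both have 15 exons and a coding sequence of 1602 bases, and differ in which of 2 alternative ninth exons they carry. These exons are shown because they are the coding part in which the 2 forms differ. Both are entirely coding and 71 bases long, at chr10:59354340-59354410 in P4ha1-201 and at chr10:59355350-59355420 in P4ha1-203, and 42 of the 71 positions are identical (59.2%). Capitals mark the positions that differ.
P4ha1-201 exon: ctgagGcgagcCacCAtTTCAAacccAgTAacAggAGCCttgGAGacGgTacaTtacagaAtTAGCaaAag
P4ha1-203 exon: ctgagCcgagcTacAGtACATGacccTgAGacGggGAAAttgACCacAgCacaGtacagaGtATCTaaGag
The form with the first of these exons held 14.3% to 64.3% of the gene sum in the PZH mice (median 39.3%) and 16.0% to 78.4% in the control mice (median 67.4%). P4ha1-203 held 79.6% to 85.7% in PZH 1, 4 and 5 and 81.2% and 84.0% in control 6 and 2, whereas in the other 7 mice it held 15.0% to 33.1%. No mouse lay between these 2 ranges, and both groups had mice in each. The share of P4ha1-201 was lower in the PZH group by 14.2 percentage points, a difference that did not pass (exact permutation p = 0.290).

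P4ha1-201 taken alone was at 0.732 to 4.15 FPKM with PZH (median 2.06) and at 1.64 to 9.04 FPKM in the control mice (median 6.34). Its difference of -1.06 (SE 0.39) reached the rule of the study, which 3.23% of all transcripts met, but not the adjusted threshold (limma, adjusted p = 0.0802, exact permutation p = 0.0346). Without PZH 1, 4 or 5 or control 1, 4 or 5 the difference was -0.99 to -0.91, short of the fold of 2, as it was at -0.93 with the median-ratio scale factor, whereas without control 2 it was -1.30 with an adjusted p of 0.0263 (limma). P4ha1-203 was at 1.07 to 5.06 FPKM with PZH and at 1.44 to 10.6 FPKM in the control mice, a difference of -0.25 (SE 0.47, limma, adjusted p = 0.768). The third form, P4ha1-202, was listed at 0 in 5 mice, the same 5 in which P4ha1-203 was the main form. The coefficient of variation among PZH mice was 15.6% for the gene sum, 64.1% for P4ha1-201 and 60.8% for P4ha1-203. The group difference was thus seen in the gene sum, while the listed split between the forms varied within both groups.

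P4ha2 encodes a second catalytic alpha subunit of the same enzyme (chr11:54100095-54131665, plus strand). Its gene sum was 1.54 to 2.76 FPKM in the PZH mice (median 1.85) and 2.71 to 5.58 FPKM in the control mice (median 4.08). The groups touched in 1 pair only, since PZH 2 at 2.76 FPKM lay just above control 1 at 2.71 FPKM, and the other 5 PZH mice were at 1.89 FPKM or less. The gene fell by 0.81 on the log2 scale (SE 0.14, limma, adjusted p = 0.000604, exact permutation p = 0.00433). The ratio of the group means was 0.458, and with a pseudocount of 0.1 in place of 1 the difference was -1.07, past the fold of 2.

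P4ha2 too is listed in 2 long forms that carry different coding exons at the same place, here the thirteenth. P4ha2-201 has an exon of 66 bases or 22 codons at chr11:54126346-54126411, and P4ha2-202 has an exon of 60 bases or 20 codons at chr11:54126238-54126297. In an alignment of the 2 exons 36 of 67 aligned positions are identical (53.7%). Capitals mark bases that differ or face a gap.
P4ha2-201 exon: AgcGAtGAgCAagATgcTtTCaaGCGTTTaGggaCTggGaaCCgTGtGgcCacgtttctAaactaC
P4ha2-202 exon: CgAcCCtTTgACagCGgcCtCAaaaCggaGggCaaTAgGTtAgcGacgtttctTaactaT
P4ha2-201 was at 0.0201 to 1.59 FPKM with PZH (median 0.854) and at 1.51 to 3.44 FPKM in the control mice (median 2.63). It fell by 0.94 (SE 0.22, limma, adjusted p = 0.00981), and was 1 of 3 member transcripts that passed the adjusted threshold, all of them lower, where 14.0% of all transcripts were called lower and 19.7% in either direction. P4ha2-202 was at 0.0974 to 1.60 FPKM with PZH and at 1.11 to 1.89 FPKM in the control mice, a difference of -0.42 (SE 0.18, limma, adjusted p = 0.143). PZH 4 and PZH 6 were the extremes of the split. P4ha2-202 held 84.9% of the gene sum in PZH 4 and 5.23% in PZH 6, against 29.5% to 51.2% in the control mice. The third listed form, P4ha2-208, covers 4 exons and was at 0.671 FPKM or less in every mouse.

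Promoter sequences from RefSeq (GRCm38.p6) matched 5 of the 10 members, namely Plod1, P4ha1, P4ha2, Serpinh1 and Pcolce. The 250 bases upstream of a start site of P4ha1 and of P4ha2 are shown because both fell and ACGTG stands once in each. ACGTG is a form of the core of the hypoxia response element. The stretches lie at chr10:59323046-59323295 and chr11:54100674-54100923, both on the plus strand. The P4ha2 stretch ends just before the start of P4ha2-202 (chr11:54100924) and lies inside the annotated gene, which begins at 54100095. The match is in capitals (CACGT is the same motif on the other strand).
P4ha1 promoter: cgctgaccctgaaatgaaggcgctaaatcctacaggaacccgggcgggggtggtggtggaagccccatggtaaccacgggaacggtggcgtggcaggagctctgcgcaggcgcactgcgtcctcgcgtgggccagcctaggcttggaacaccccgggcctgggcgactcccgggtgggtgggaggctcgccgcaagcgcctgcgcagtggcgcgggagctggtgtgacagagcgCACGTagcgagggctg
P4ha2 promoter: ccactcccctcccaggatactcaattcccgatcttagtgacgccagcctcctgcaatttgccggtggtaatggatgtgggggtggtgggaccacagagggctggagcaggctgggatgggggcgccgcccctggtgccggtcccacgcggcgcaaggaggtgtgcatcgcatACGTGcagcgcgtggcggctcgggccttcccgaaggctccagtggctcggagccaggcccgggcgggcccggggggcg
Searched on both strands, the letters also stood once in the promoter of Serpinh1 and not in those of Plod1 and Pcolce. Only ACGTG was searched, so other forms of the core, such as GCGTG, are not counted in any of these promoters. Of all 32851 promoters of this length 16.6% held the motif, and 20.4% of the 13953 promoters of the listed genes did. A match of 5 letters is a description of the sequence and not a measured binding site.

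Plod2 is the lysyl hydroxylase that acts on the ends of the collagen chains, where its product leads to hard-to-cleave pyridinoline crosslinks. Its gene sum (chr9:92542223-92608428, plus strand) was 1.29 to 2.08 FPKM in the PZH mice (median 1.61) and 2.38 to 3.75 FPKM in the control mice (median 2.81). All 6 PZH mice were below all 6 control mice. The gene fell by 0.57 on the log2 scale (SE 0.10, limma, adjusted p = 0.000732), and the ratio of the means was 0.559. Its 2 listed forms differ by 1 coding exon of 63 bases, or 21 codons, at chr9:92601985-92602047. It is exon 14 of Plod2-203 and is left out of Plod2-201, and is printed without capitals as it has no counterpart.
Plod2-203 exon: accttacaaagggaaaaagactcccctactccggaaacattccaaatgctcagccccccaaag
The form with the exon, Plod2-203, held 66.7% to 81.7% of the gene sum with PZH and 50.1% to 99.96% in the control mice. Control 2 stood alone at the upper end, with Plod2-201 at 0.00106 FPKM, and the other 5 control mice were at 50.1% to 64.6%. The difference in share, 7.07 percentage points, did not pass (exact permutation p = 0.385). Plod2-203 itself was at 0.882 to 1.64 FPKM with PZH and at 1.28 to 2.43 FPKM in the control mice, a difference of -0.40 (SE 0.13, limma, adjusted p = 0.0516), and Plod2-201 differed by -0.44 (SE 0.18, adjusted p = 0.126).

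Plod1, the lysyl hydroxylase that acts on the helical part of collagen, was the most abundant member in both groups. Its gene sum (chr4:147909753-147936767, minus strand) was 10.6 to 16.1 FPKM with PZH (median 14.5) and 13.1 to 16.7 FPKM in the control mice (median 15.0). The groups overlapped over most of their range, and the difference of -0.05 (SE 0.10, limma, adjusted p = 0.683) became 0.12 with the median-ratio scale factor. The full-length Plod1-201 held 85.8% to 93.7% of the gene sum in all mice. A short form of 7 exons, Plod1-202, was at 0.740 to 2.23 FPKM, and the fragment Plod1-206 was at 0.308 FPKM or less.

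Serpinh1 encodes HSP47, the chaperone that binds procollagen in the endoplasmic reticulum. Its gene sum (chr7:99345376-99353239, minus strand) was 3.68 to 15.1 FPKM in the PZH mice (median 12.5) and 4.53 to 14.9 FPKM in the control mice (median 11.6). Within each group the values spread over a range of more than 3-fold, with PZH 2, PZH 4 and control 1 below 6 FPKM. The difference of -0.07 had an SE of 0.34 (limma, adjusted p = 0.891), the widest of the members, and its sign turned when any of 4 mice was left out. These data therefore set only a loose limit on a change of Serpinh1.

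Of 7 listed Serpinh1 transcripts 4 have the same coding length of 1251 bases. These 4, Serpinh1-201, Serpinh1-202, Serpinh1-203 and Serpinh1-205, were the ones with a mean of at least 1 FPKM. Serpinh1-205 was at 0.0793 to 10.6 FPKM with PZH (median 2.26) and at 0 to 2.096 FPKM in the control mice (median 0.188). Its difference of 1.25 (SE 0.48) reached the rule of the study but not the adjusted threshold (limma, adjusted p = 0.0949, exact permutation p = 0.0368). The fold was lost without PZH 5, the highest mouse, at 0.90, and the unadjusted p without control 3, whereas without PZH 4 the difference was 1.59 with an adjusted p of 0.0232 (limma). Serpinh1-203 was at 0 to 2.77 FPKM with PZH (median 0.424) and at 0 to 7.06 FPKM in the control mice (median 3.01), a difference of -1.15 (SE 0.55, limma, adjusted p = 0.180). As shares of the gene sum, Serpinh1-205 was 22.1 percentage points higher and Serpinh1-203 20.3 points lower with PZH. Neither difference had a p below 0.05 (exact permutation p = 0.0563 and 0.0671). Of the 15 shares tested over all members, these had the smallest p, and none was below 0.05 before any adjustment. Serpinh1-201, the form with the largest share in most mice, was at 1.53 to 9.48 FPKM with PZH and at 2.39 to 8.18 FPKM in the control mice. Serpinh1-202 was at 0.132 to 4.02 FPKM and at 0.182 to 2.94 FPKM. Serpinh1-204, Serpinh1-206 and Serpinh1-207 had means below 1 FPKM and were listed at 0 in 2, 4 and 4 mice.

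**Figure D2:**
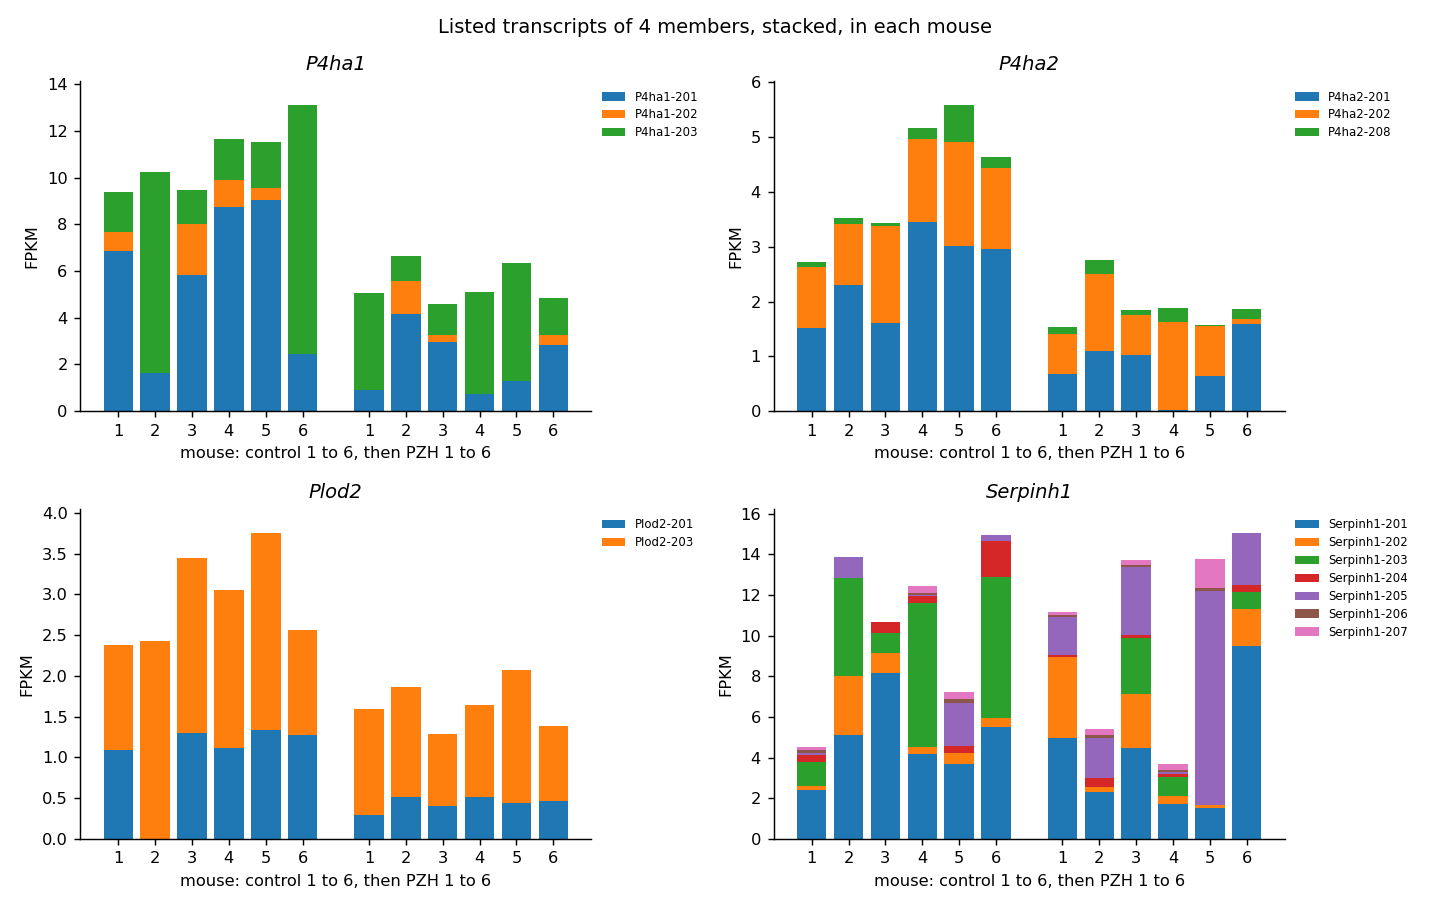
FPKM of the listed transcripts of P4ha1, P4ha2, Plod2 and Serpinh1, stacked to the gene sum (vertical axes from 0), in control 1 to 6 and then PZH 1 to 6. P4ha1-203 makes up most of the bar in control 2 and 6 and in PZH 1, 4 and 5, and Serpinh1-205 is 76.7% of the bar in PZH 5.

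Bmp1 encodes the procollagen C-proteinase, which removes the carboxyl propeptides and also activates lysyl oxidase. Its single listed transcript (gene at chr14:70474558-70520234, minus strand) was at 8.50 to 19.8 FPKM with PZH (median 10.3) and at 5.40 to 15.4 FPKM in the control mice (median 7.90). Control 1 was at 15.4 FPKM and the other 5 control mice were at 8.84 FPKM or less, while PZH 5 at 19.8 FPKM stood above the other PZH mice at 12.3 FPKM or less. The difference of 0.37 (SE 0.23, limma, adjusted p = 0.213) did not pass the threshold. Without control 1 it was 0.53 and passed narrowly (adjusted p = 0.0492), so this 1 mouse decided the call.

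Pcolce encodes a secreted protein that enhances the C-proteinase. Its gene sum (chr5:137605103-137613784, minus strand) was 3.14 to 7.75 FPKM with PZH (median 5.15) and 3.36 to 6.70 FPKM in the control mice (median 4.60). The ranges of the groups nearly coincided, and the difference was 0.10 (SE 0.20, limma, adjusted p = 0.699). As with P4ha1, the transcript listed at the highest level changed from mouse to mouse, and how shared fragments were divided was not tested. Pcolce-202 held 56.9% to 73.6% of the gene sum in PZH 3, PZH 5, control 4 and control 5, and 17.1% or less in the other 8 mice, in 3 of which it was below 0.02 FPKM. Pcolce-201 was at 0.554 to 3.56 FPKM and Pcolce-208, which covers 4 exons, at 0.450 to 2.20 FPKM over all 12 mice. Exons of Fbxo24 overlap those of Pcolce on the same strand, and reads shared between them could be assigned to either, so the Pcolce values are uncertain by that amount.

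Lox encodes lysyl oxidase, which starts the crosslinking of fibrillar collagen and elastin. Its gene sum was 1.32 to 3.09 FPKM in the PZH mice (median 1.73) and 2.38 to 4.43 FPKM in the control mice (median 3.15). Below every control mouse stood 5 PZH mice, at 1.92 FPKM or less, and PZH 2 at 3.09 FPKM lay among the controls. The gene fell by 0.57 (SE 0.15, limma, adjusted p = 0.00752, exact permutation p = 0.00866), with a ratio of the means of 0.577. Lox-201 held 71.5% to 85.4% of the gene sum, and the 2 forms have the same coding length of 1233 bases. Lox-201 fell by 0.54 (SE 0.16, limma, adjusted p = 0.0315), a call that was lost in 7 of the 12 fits with 1 mouse left out, without PZH 1, 3, 4 or 6 or control 3, 4 or 5 (adjusted p up to 0.0700). Lox-202, at 0.226 to 0.519 FPKM with PZH and at 0.489 to 0.975 FPKM in the control mice, differed by -0.25 (SE 0.08, limma, adjusted p = 0.0552).

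Loxl2, a lysyl oxidase that also acts on collagen IV of basement membranes, was listed with 1 transcript (gene at chr14:69609068-69695834, plus strand). It was at 2.82 to 6.06 FPKM with PZH (median 4.40) and at 5.37 to 7.47 FPKM in the control mice (median 6.17). PZH 2 was again the highest PZH mouse and the only one above the lowest control mouse. The gene fell by 0.46 (SE 0.13, limma, adjusted p = 0.0118 among gene sums and 0.0312 among transcripts), with a ratio of the means of 0.695. Among transcripts the call was lost without PZH 4 or 6 or control 3, 4 or 5 (adjusted p up to 0.0680), and among gene sums it was kept without any 1 mouse (adjusted p up to 0.0286).

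Loxl1, the family member best known for crosslinking elastin, did not pass the test. It was at 2.12 to 4.25 FPKM with PZH (median 2.78) and at 1.77 to 3.38 FPKM in the control mice (median 2.75), from 1 transcript of a gene at chr9:58287738-58313186 on the minus strand. Each group had mice across the range of the other, and the difference was 0.14 (SE 0.14, limma, adjusted p = 0.447).

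**Figure D3:**
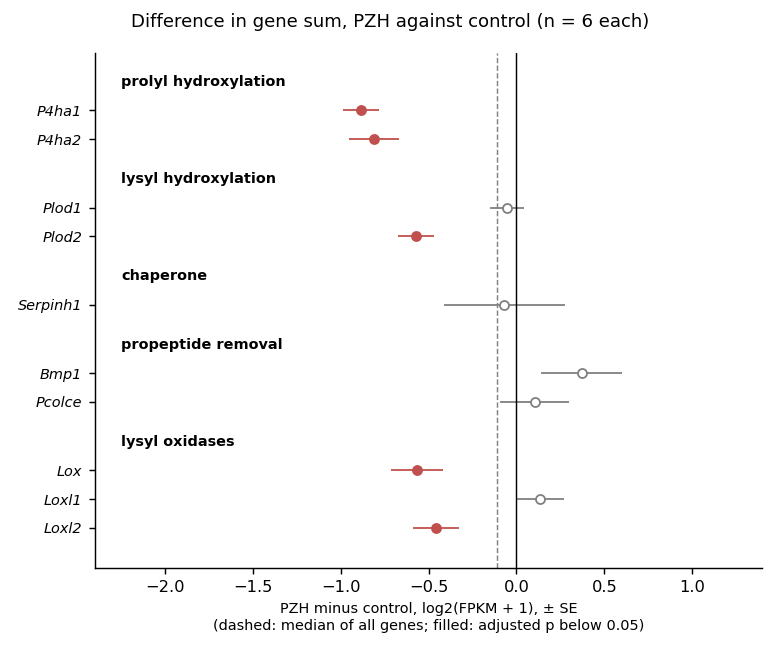
Difference of the gene sums between PZH and control mice on the log2(FPKM + 1) scale with its SE (horizontal axis, n = 6 mice per group) for the 10 members by role. Filled points passed the adjusted threshold, the solid line is 0, and the dashed line at -0.11 is the median of all genes. The 5 filled points, P4ha1, P4ha2, Plod2, Lox and Loxl2, all lie to its left.

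The order of the listed levels of the members differed between the groups. FPKM is per length, but the sums of P4ha2, Pcolce and Loxl2 lack some annotated coding forms. The order between genes is therefore a description. In the control mice the medians ran, in FPKM, from Plod1 (15.0) through Serpinh1 (11.6), P4ha1 (10.9), Bmp1 (7.90), Loxl2 (6.17), Pcolce (4.60), P4ha2 (4.08), Lox (3.15) and Plod2 (2.81) to Loxl1 (2.75). The ranges of every pair of neighbours in this order overlapped. With PZH, P4ha1 stood at rank 5 instead of 3, and Plod2 was the lowest member at 1.61 FPKM. The only neighbours whose ranges did not overlap in the PZH group were Bmp1, at 8.50 FPKM or more, and Pcolce, at 7.75 FPKM or less. Loxl1 was the lowest member in the control group and stood above P4ha2, Lox and Plod2 with PZH.

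The enzymes were next set against the collagen that they act on in the same mouse, a comparison chosen after the values were seen. The summed level of the fibrillar collagen genes Col1a1, Col1a2 and Col3a1 was 75.6 to 134 FPKM with PZH (median 103.7) and 47.4 to 98.6 FPKM in the control mice (median 85.2). This sum was higher with PZH by 0.47 on the log2 scale, a difference that did not pass (exact permutation p = 0.0736). Per 1000 FPKM of these collagens, P4ha1 stood at 43.8 to 67.1 FPKM with PZH and at 97.7 to 245 FPKM in the control mice. The corresponding values of Lox were 14.5 to 23.0 and 32.5 to 50.2 FPKM. The 5 genes that fell had no overlap between the groups on this scale, where 19.3% of all genes did not overlap and were lower. The log2 ratios were taken after 1 FPKM was added to the member and to the collagen sum, unlike the values per 1000 FPKM. They differed by -1.36 for P4ha1, -1.28 for P4ha2, -1.04 for Plod2, -1.04 for Lox and -0.93 for Loxl2 (exact permutation tests, each p = 0.00216, the smallest possible, not adjusted for 10 members). The added 1 FPKM shrinks the differences of low genes most, so these sizes do not rank the members.

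The other 5 members differed less on this scale, which was not tested between genes. Plod1 differed by -0.52 (exact permutation test, p = 0.00649) and Loxl1 by -0.33 (p = 0.0152), and both lost this with Col1a1 alone as the reference (-0.23, p = 0.268, and -0.042, p = 0.747) but kept it with 18 collagen chain genes as the reference (-0.36, p = 0.00649, and -0.17, p = 0.0325). Pcolce differed by -0.37 (exact permutation test, p = 0.0628), Serpinh1 by -0.54 (p = 0.227) and Bmp1 by -0.10 (p = 0.827). All 10 ratios share 1 denominator, which was itself higher in most PZH mice, so they are not 10 separate results. With Col1a1 alone the 5 genes that fell still differed by -1.07 to -0.64 (exact permutation tests, p = 0.00866 or less).

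**Figure D4:**
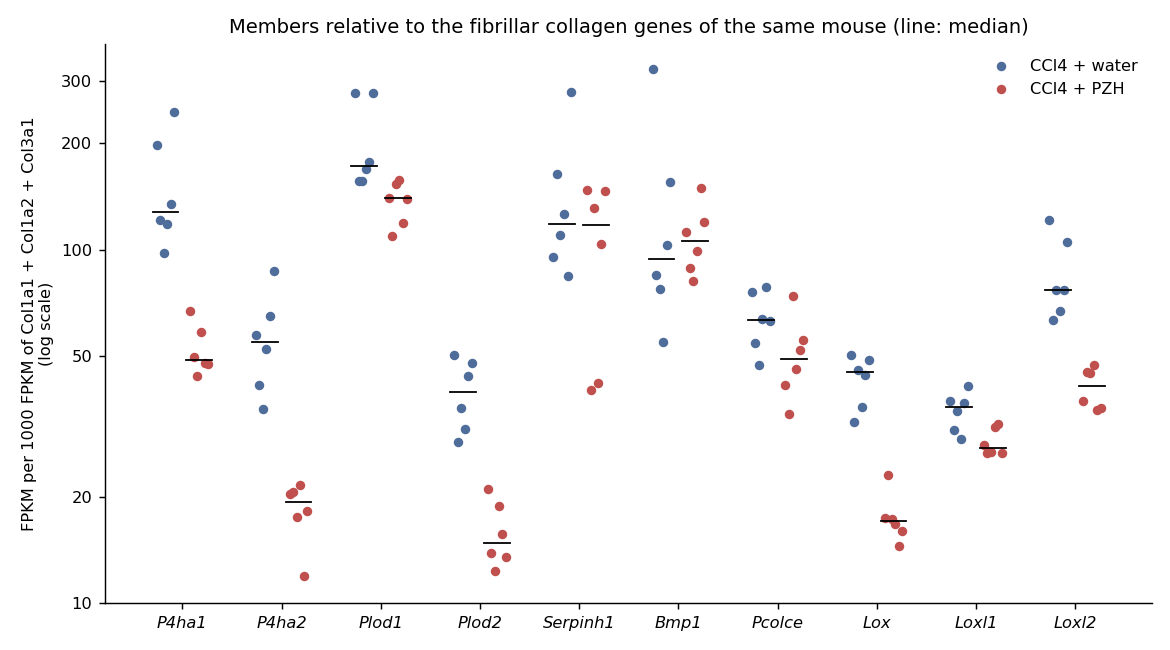
FPKM of each member per 1000 FPKM of Col1a1, Col1a2 and Col3a1 of the same mouse (vertical log axis), for the 6 control and 6 PZH mice, with a line at each median. P4ha1, P4ha2, Plod2, Lox and Loxl2 of all PZH mice lie below those of all control mice, and the groups overlap for the other 5 members.

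The other genes of collagen processing, 35 listed of 38 in 5 roles (P4ha3, Tll1 and Tll2 were not among the listed genes), moved in both directions. Of these, 13 fell, 5 rose and 17 did not pass the adjusted threshold, beside 32.1% lower and 12.7% higher among all genes, and their median difference was -0.10, close to the -0.11 of all genes. With the median-ratio scale factor the split was 8 lower and 9 higher. By the rule of the study 4 fell, against 2.5% of all genes, and none rose. They were Loxl4, a lysyl oxidase (-1.31, SE 0.16, limma, adjusted p = 7.17e-05), Tgm2, a transglutaminase that crosslinks matrix proteins (-1.07, SE 0.11), Tgm1, a second transglutaminase (-1.65, SE 0.28), and Creb3l2, a transcription factor of the secretory pathway (-1.08, SE 0.12). With the median-ratio scale factor Tgm2 (-0.89) and Creb3l2 (-0.91) were short of the fold of 2, and Loxl4 (-1.19) and Tgm1 (-1.49) stayed past it.

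Among the 11 genes of prolyl hydroxylation and chaperones 3 fell and 1 rose. P3h1, a prolyl hydroxylase acting on another carbon than the P4ha enzymes, fell from a median of 11.8 FPKM to 5.10 FPKM (-0.90, SE 0.18, limma, adjusted p = 0.00167). Fkbp14, a prolyl isomerase, fell by 0.79 (SE 0.30, limma, adjusted p = 0.0482) and its relative Fkbp7 rose by 0.58 (SE 0.17, adjusted p = 0.0124), and the fall of Fkbp14 was not called with the median-ratio scale factor (adjusted p = 0.0722). Control 3 and control 6 stood at 4.23 and 3.97 FPKM of Fkbp14. The other control mice were at 0.582 to 0.979 FPKM, against 0.274 to 0.964 FPKM with PZH. P3h4 fell as well and lost its call on that scale. P4hb, the beta subunit that P4ha1 and P4ha2 need, was at 481 to 596 FPKM with PZH and at 516 to 692 FPKM in the control mice. Its difference of -0.09 (SE 0.08, limma, adjusted p = 0.386) did not pass. This is a level of whole liver and does not show P4hb in the cells that make collagen.

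Plod3, the third lysyl hydroxylase, fell from a median of 12.5 FPKM to 6.21 FPKM with no overlap of the groups (-0.86, SE 0.12, limma, adjusted p = 0.000126). Colgalt2, which adds galactose to hydroxylysine, rose by 0.20 (SE 0.05, adjusted p = 0.00598) at a level below 0.3 FPKM. Colgalt1, the more abundant galactosyltransferase, differed by -0.54 (SE 0.22, adjusted p = 0.0645). Of the 7 genes of procollagen secretion 4 fell, among them Sec24d, a coat protein of transport vesicles (-0.81, SE 0.10), and Creb3l1, a transcription factor of collagen genes (-0.69, SE 0.12), both without overlap.

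Of 6 genes of propeptide removal and its scaffold, Fn1 (fibronectin) fell by 0.46 (SE 0.16, limma, adjusted p = 0.0312) and Adamts3 (an N-proteinase) by 0.17 (SE 0.06, adjusted p = 0.0283), and neither was called with the median-ratio scale factor (adjusted p = 0.121 and 0.0694). Beside the oxidase and the transglutaminases named above, the crosslinking list held 3 genes that rose, named after their values were seen. They were the small proteoglycans Lum (0.72, SE 0.18) and Fmod (0.26, SE 0.09) and the elastic fibre protein Fbln5 (0.77, SE 0.26), which bind fibrils and are not enzymes.

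The collagen chains themselves were mixed. Of 18 chain genes 4 rose, 2 fell and 12 did not pass, with a median difference of 0.16. Col3a1 rose by 0.62 (SE 0.18, limma, adjusted p = 0.0146), Col14a1 by 0.58 (SE 0.11, adjusted p = 0.000811) and Col5a3 by 0.55 (SE 0.16, adjusted p = 0.0134). Col1a1 was at 14.1 to 32.3 FPKM with PZH and at 11.3 to 27.5 FPKM in the control mice, and its difference of 0.18 (SE 0.23, adjusted p = 0.556) did not pass. The fourth to rise was Col18a1 and the 2 that fell were Col4a1 (-0.48, SE 0.16) and Col4a2 (-0.51, SE 0.15), the chains of basement membrane collagen IV, all 3 named after their values were seen. With the median-ratio scale factor 7 chain genes were called higher and 1, Col4a2, lower.

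**Figure D5:**
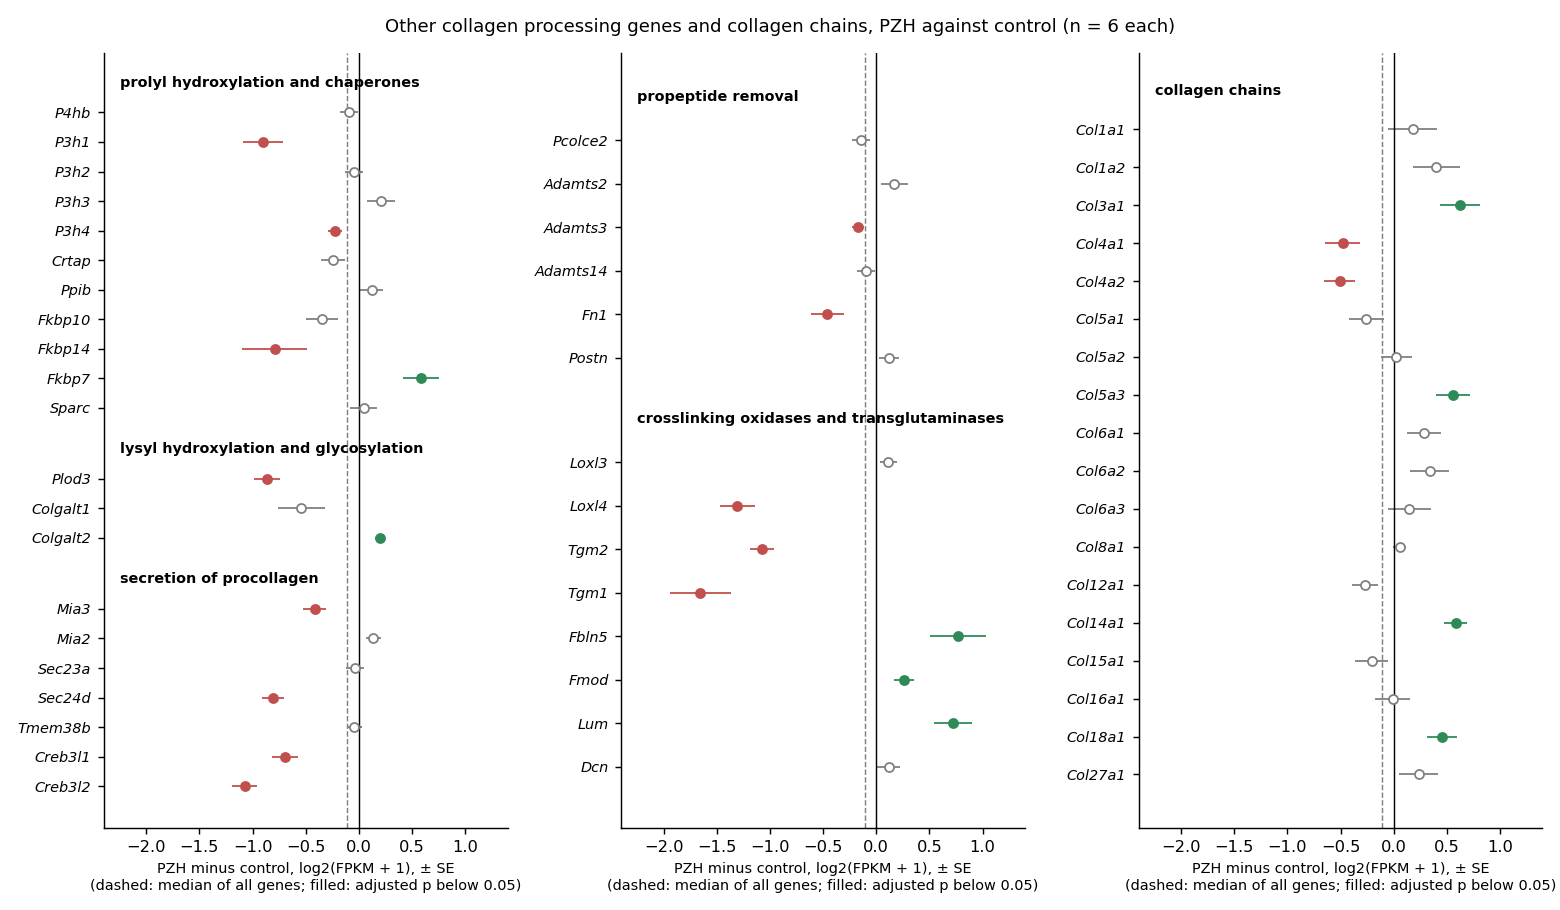
Difference of the gene sums between PZH and control mice on the log2(FPKM + 1) scale with its SE (horizontal axes, n = 6 mice per group) for 35 other genes of collagen processing and 18 collagen chain genes. Filled points passed the adjusted threshold and the dashed line is the median of all genes, -0.11. Among the processing genes 13 are lower and 5 higher, and among the chains 2 are lower and 4 higher.

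Markers of the cells that make collagen moved unevenly beside these results. The summed level of 7 myofibroblast markers was 10.4 to 25.1 FPKM with PZH and 31.5 to 52.5 FPKM in the control mice, with no overlap. Most of this sum was Tagln, Acta2 and Timp1, with means of 16.0, 12.9 and 10.5 FPKM in the control mice. Of the 7 markers 3 fell (Timp1, Tagln and Acta2), 1 rose (Itgbl1) and 3 did not pass, and of these Cnn1 and Actg2 were listed at 0 in some mice. The 9 stellate cell markers summed to 75.0 to 115 FPKM with PZH and to 69.9 to 101 FPKM in the control mice, with Reln higher, Des lower and 7 not called, and Lrat, the retinoid enzyme of quiescent stellate cells, at 17.95 to 21.6 and 9.67 to 19.5 FPKM. Hepatocyte markers, led by Alb, the albumin gene, at 18020 FPKM or more in every mouse, summed to 43170 to 59640 FPKM with PZH and to 29080 to 39290 FPKM in the control mice. None of these markers was used to adjust the members, and their part in the differences was not tested. Of 9 hepatocyte markers 4 rose and 1 fell, of 7 macrophage markers 3 rose and 1 fell, of 7 of sinusoidal endothelium 2 fell, and of 5 listed markers of bile duct cells 1 fell (Sox9). With the median-ratio scale factor 6 hepatocyte markers were higher and 1 lower, 4 macrophage markers higher and none lower, 2 endothelial markers higher (Kdr and Oit3) and 1 lower (Lyve1), and 1 bile duct marker higher (Epcam) and 1 lower (Sox9), while the counts for stellate cells and myofibroblasts were as before. The genes named for these marker counts were chosen after their values were seen.

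Finally, the members were summarised in each mouse by the mean of their standardised log2 gene sums. PZH 1 was lowest (-1.18) and PZH 4 next (-0.79), control 5 was highest (0.76), and PZH 5 (0.38) stood above control 1 (-0.27), control 2 (0.08) and control 6 (0.20). The genes most alike to this mean over the 12 mice, of 10938 compared, were Tnfrsf21 (Pearson r = 0.97), Pdgfrb (0.96), S1pr3 (0.96), Mbp (0.95) and Emilin1 (0.95). After the mean of each group was subtracted, they were Pde3a (0.96), Mbp (0.95), Cpxm1 (0.95), Lhfp (0.94) and Tnfrsf21 (0.94). Tnfrsf21 and Mbp were in both lists. These correlations are a description of 12 mice that share a group difference and a scaling, and the genes were picked as the highest of many.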

How the data were processed

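RNA was extracted from the livers of 12 mice, 6 per group, and the authors made strand-specific libraries after removal of ribosomal RNA. Reads were trimmed (Trimmomatic), mapped by the authors to GRCm38 with HISAT2 2.1.0 and quantified per transcript with StringTie 1.3.5 and the Ensembl annotation. The deposited values are FPKM per transcript and mouse, linear and already divided by length and library size. Whether strand was used in quantification is not given in the sources used here, and genes on the opposite strand overlap exons of Lox, Loxl2, Plod2 and Pcolce. The lncRNA table was not used here. Read counts could not be recovered from the FPKM: at best 7.00% to 10.6% of low values of a mouse were within 0.02 of a whole number of fragments, so depth per mouse is not given, no counting interval was computed, and precision is the spread between mice. No 2 of the 66 pairs of mice had identical values (r across transcripts 0.895 to 0.939).

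FPKM were used as deposited. GENCODE M21 assigned 29876 of 29883 transcripts to genes, and the FPKM of a gene were summed. Transcripts and gene sums were compared on log2(FPKM + 1), pseudocount 1, without filter, in limma 3.58.1 (R 4.3.3) with Benjamini-Hochberg adjustment over the whole table. The 2 call rules were a 2-fold change with p below 0.05, the thresholds of the study, and an adjusted p below 0.05. The study does not name its test, so p was taken from limma and the calls of the study are not reproduced. Fold changes on this scale understate the change of low genes. Single values were compared by two-sided exact permutation tests over all labellings of the mice. Other steps were run in Python 3.11.15 (pandas 2.3.3, scipy 1.17.1).

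The members and gene lists were chosen with earlier results of these data known. All members were named. Transcripts were named at a mean of at least 1 FPKM or when called by the rule of the study, and other pathway genes when called by that rule or among the 3 largest adjusted calls of a list. The 5 genes most alike were named by correlation. Alternatives were a pseudocount of 0.1, a mean of at least 1 FPKM, a median-ratio scale factor, equal FPKM sums, limma without moderation or with a mean-variance trend, a block for the mouse number, and leaving out each mouse in turn. The labels used here give no batch. The comparison with fibrillar collagen was added after the values were seen.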

Additional observations from a re-analysis of the deposited data

Results flagged for a closer look

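In 8 of the 50 groups of 6 values examined (the gene sums and named transcripts of the members in each group), the highest mouse stood far apart from the next. The limit used is passed in about 1 group in 20 of normally distributed values. FPKM were taken on the linear scale, and a gene sum contains its own transcripts. That rate therefore does not apply directly, and the 8 groups are a description. PZH 2 had 3.09 FPKM of Lox against 1.92 FPKM in the next PZH mouse, with 2.63 against 1.56 FPKM for its transcript Lox-201, and 2.76 FPKM of P4ha2 against 1.89 FPKM. Bmp1 was at 19.8 FPKM in PZH 5, where the next PZH mouse had 12.3 FPKM, and at 15.4 FPKM in control 1, where the next control mouse had 8.84 FPKM. The other 3 were transcripts of Serpinh1. Serpinh1-202 was at 2.94 FPKM in control 2 (next 0.972), Serpinh1-203 at 2.77 FPKM in PZH 3 (next 0.949) and Serpinh1-205 at 10.6 FPKM in PZH 5 (next 3.31).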

How the results depend on the processing

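The 5 lower gene sums (P4ha1, P4ha2, Plod2, Lox and Loxl2) kept their direction and their call under all 19 alternatives, and leaving out any 1 mouse gave 5 to 6 called members, the sixth being Bmp1 without control 1. By the rule of the study no gene sum was called, and 1 was with a pseudocount of 0.1 (P4ha2). The count of called transcripts was less firm. With the median-ratio scale factor it was 1 in place of 2 by the rule of the study and 1 in place of 3 at the adjusted threshold, and with 1 mouse left out it was 0 (without PZH 5) to 3 and 1 (without PZH 6 or control 3, 4 or 5) to 5 (without control 2). Of the other processing genes 4 were called by the rule of the study, 8 with a pseudocount of 0.1 and 2 with the median-ratio scale factor. Over all genes this rule called 570 (215 higher), 1317 with a pseudocount of 0.1, and 553 (339 higher) with the median-ratio scale factor, and over all transcripts it called 966 (372 higher), 2981 and 935 (549 higher). The study itself reports more upregulated than downregulated protein-coding transcripts, by a test that it does not name, and the cause of this difference was not tested. At the adjusted threshold the scale factor moved the genes from 1798 higher and 4560 lower to 2735 and 2795, and the transcripts from 1712 and 4186 to 2564 and 2490.

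Members that were not called changed sign under some settings. The scale factor gave 0.12 for Plod1, 0.10 for Serpinh1, 0.095 for Plod1-201 and 0.027 for Pcolce-208. With 1 mouse left out the differences ran from -0.089 to 0.023 for Plod1, -0.27 to 0.16 for Serpinh1, -0.41 to 0.041 for P4ha1-203, -0.40 to 0.21 for Pcolce-202 and -0.17 to 0.053 for Pcolce-208, and the difference in share from -1.59 to 1.3 percentage points for Lox-201 and from -14.1 to 2.94 for Pcolce-202. The Bmp1 ratio to collagen, -0.10, was 0.19 with Col1a1 alone and 0.065 with 18 chain genes. The cause was not tested.

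The mouse numbers do not pair the samples: the deviations of mice with the same number correlated at -0.016 to 0.030, and none correlated best with its own number. With the number as a block, the 5 gene sums stayed called (P4ha1 adjusted p = 0.00112, limma), Lox-201 (adjusted p = 0.0612) and Loxl2-201 (0.0547) were not called, and Serpinh1-205 (0.0296) and Plod2-203 (0.0496) were.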
